A study of Mus musculus with 9 samples.

Results

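HSP90 and the cochaperones that work with it were followed across LPS-primed mouse macrophages exposed to organotins. The 9 genes considered were Hsp90aa1, which encodes the inducible cytosolic HSP90, and the cochaperone genes Stip1, Ahsa1, Chordc1, Fkbp4, Fkbp5, Cdc37, Ptges3 and Ppid. They were chosen by name, with earlier results of these data known. A gene counted as measured where a probe set of the array named that gene alone. This held for 7 of the 9, among 18193 genes measured in all. Ptges3 and Ppid lie on probe sets that name several genes, so neither was analysed here. Each gene was represented by the probe set with the highest mean over the 9 arrays. The 7 genes had 17 probe sets in all, and those not chosen served as a check. Stip1 and Chordc1 had 1 probe set each, so no check was possible for them.

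The cells were bone marrow derived macrophages of C57BL6 mice aged 6 to 12 weeks, grown with L929 conditioned medium and used on day 6 in vitro. All 3 groups received 33 ng/mL LPS (lipopolysaccharide, a bacterial cell wall component) for 3 h and then, for 6 h, sterile saline, 1.25 µM TMT OH or 10 µM TET Br. TMT is trimethyltin and TET is triethyltin, organotins that carry methyl or ethyl groups on tin, and their doses differed. Each group had 3 biological replicates, and no group without LPS was analysed here. No source used here says whether the replicates came from separate mice, so each p-value rests on the spread among these 9 samples, which may be technical. Values are log2 signals of Affymetrix arrays, errors of a group are SD with n = 3, and differences are log2 differences tested with limma at an adjusted p under 0.05. In a bulk sample, fewer cells of a type and less RNA per cell cannot be told apart.

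HSP90 is an abundant chaperone that clamps around nearly folded proteins, its clients, and uses ATP to bring them into an active form. Its clients include signalling kinases, steroid receptors and, in macrophages, the inflammasome sensor NLRP3 and kinases that act below Toll-like receptors. Cochaperones steer the cycle: STIP1 hands clients over from HSP70, CDC37 loads kinases, AHA1 (from Ahsa1) speeds ATP use, p23 (from Ptges3) holds the closed clamp, and FKBP52, FKBP51 and CYP40 (from Fkbp4, Fkbp5 and Ppid) join steroid receptor complexes. Protein damage switches on many of these genes through heat shock factor 1.

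The 7 genes did not move as a block. After TET, Hsp90aa1, Chordc1 and Ahsa1 rose 2.72-fold, 2.49-fold and 1.96-fold, while Stip1, Cdc37, Fkbp4 and Fkbp5 fell 1.46-fold, 1.75-fold, 2.04-fold and 2.22-fold. All 7 members passed under TET, against 50.8% of all genes, and 3 rose (27.4% of all genes) and 4 fell (23.4%). After TMT, Chordc1 rose 1.66-fold, Fkbp5 fell 2.72-fold, Stip1 fell 1.46-fold and the other 4 did not pass. That is 3 of 7, against 27.8% of all genes, with 1 upward (14.3% of all genes) and 2 downward (13.4%). Bright genes passed more often, and all 7 members are among the 9097 genes of at least median signal. With these bright genes tested alone, 6066 of the 9097 passed under TET and 4628 under TMT, and the members' counts stayed the same. The 3 TET arrays lay wholly outside the saline range in 7 of 7 members (58.7% of all genes), and the 3 TMT arrays in 5 of 7 (44.7%). Both comparisons use the same 3 saline arrays. Under TET the falls of Stip1 and Cdc37 depended on the scaling of the arrays, and the falls of Fkbp4 and Fkbp5 on the probe set, as given with each gene.

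Signals on the TET arrays covered a narrower range, with an interquartile range over genes of 3.89 ± 0.05 against 4.28 ± 0.04 in saline and 4.34 ± 0.03 under TMT. In TET minus saline, the median over all genes was 0.09. With genes split into 5 equal bins by saline signal, it was −0.33 in the bin that holds Fkbp4 and Fkbp5 (7.82 to 9.88) and −0.24 in the brightest bin, which holds the other 5 members. In the dimmer bins (2.22 to 7.82) the TET medians were 0.18, 0.25 and 0.15. In TMT minus saline, the medians of the bins that hold members were 0.04 and −0.06. The part of this shift in the members' falls was not tested. The 8 macrophage markers, among them Csf1r, Adgre1 and Cd68, averaged 12.50 to 12.55 on the saline arrays, 12.32 to 12.64 under TMT and 12.28 to 12.41 under TET. Mean levels of markers of other marrow cells ran from 7.05 to 7.74 for the 7 of 8 neutrophil markers measured. They ran from 5.07 to 5.71 for 3 of 4 B cell markers, 4.96 to 5.58 for 4 T cell markers and 5.28 to 5.89 for 4 dendritic cell markers. The ranges were 6.23 to 6.88 for 4 stromal markers and 4.70 to 5.57 for 2 of 4 erythroid markers. On the TET arrays the B cell, T cell, stromal and erythroid means lay above the saline range and the macrophage and neutrophil means below it. These higher means lay within the signal range of the dimmer bins, whose medians were above 0 under TET. On the TMT arrays the neutrophil and T cell means lay below the saline range. Genes of a list did not all follow its mean. Of the 8 macrophage markers, 4 fell and 1, Mertk, rose under TET (62.5% passed, against 50.8% of all genes). Of the 7 neutrophil markers, 4 fell and 3 did not pass under TMT (57.1% passed, against 27.8% of all genes). The part of these shifts in the results was not tested. Within groups, TET replicate 1 was the lowest of the 3 TET arrays in 6 of 7 members (34.7% of all genes), and TMT replicate 2 the lowest TMT array in 5 of 7 (37.1% of all genes).

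**Figure D1:**
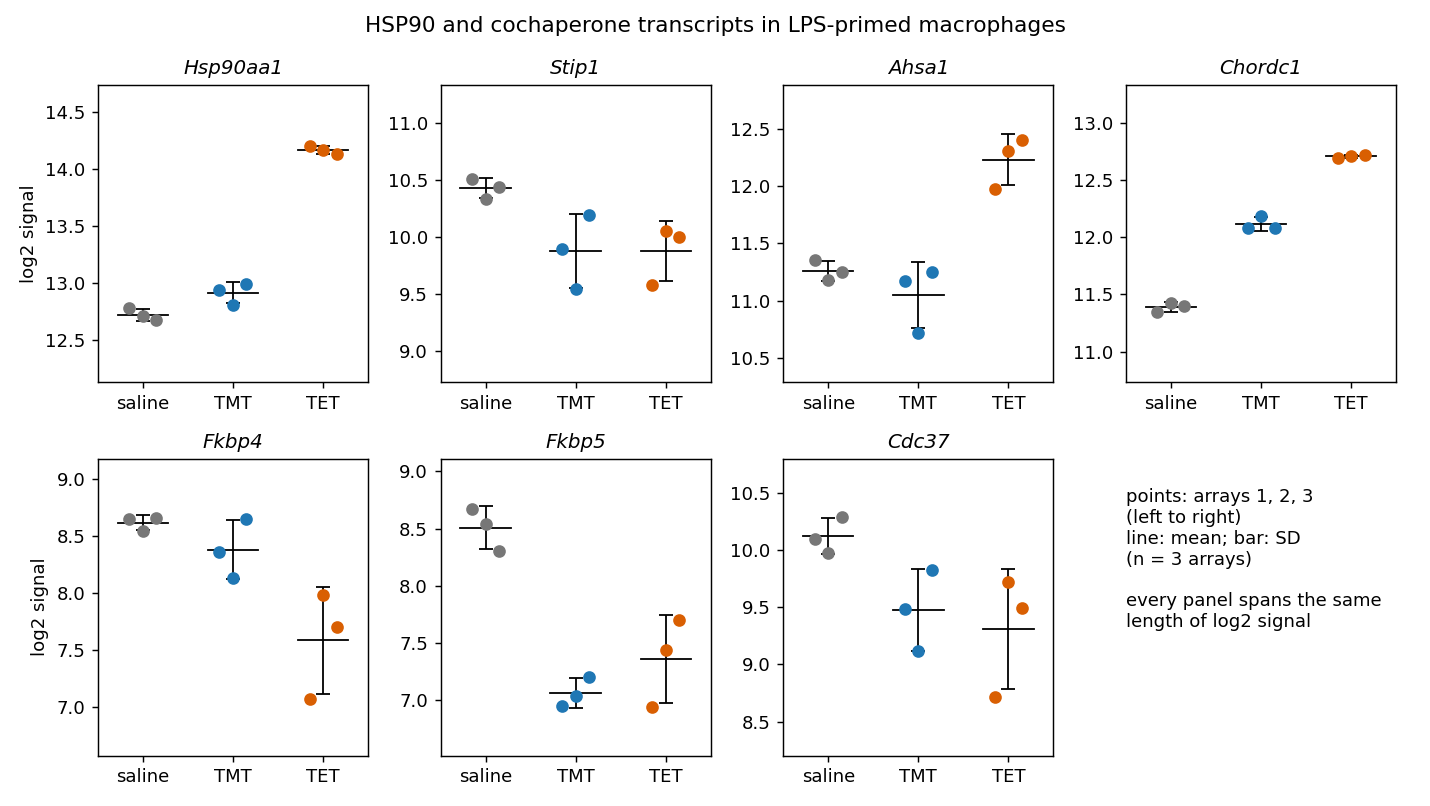
Log2 signal (vertical axis) of the 7 measured genes on each array, grouped as saline, TMT and TET; points are arrays, the line is the mean and the bar the SD (n = 3). Hsp90aa1 and Chordc1 lie within a narrow band in every group, whereas Fkbp4 and Cdc37 spread widely under TET, with TET replicate 1 lowest at 7.07 and 8.71.

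Promoter sequence is shown for the 6 measured members whose promoter the RefSeq table holds (GRCm38.p6), because these genes divided by direction. Hsp90aa1, the member with the largest rise under TET, has no promoter there and was not searched. The 250 bases before each annotated start were searched on both strands for the heat shock element, the letters bound by heat shock factor 1, written as a pair of facing units (GAANNTTC or TTCNNGAA). A run of 3 facing units, which contains both of these pairs, was searched separately. The CCAAT box, the element TGATGNAA read by ATF4 and the element TGACNNNGC read by NRF2 were searched in the same way. The paired heat shock letters occurred in 12.8% of 32851 promoters of the same length, the run of 3 units in 0.466%, CCAAT in 33.8%, the ATF4 letters in 3.45% and the NRF2 letters in 10.2%. Among the 6 members, the pair occurred in Fkbp4 and Cdc37, CCAAT in Stip1, Fkbp4, Fkbp5 and Cdc37, and the other letters in none. Below, capitals mark CCAAT (or ATTGG, its reverse) and the paired heat shock letters, and for Ahsa1 and Chordc1, which hold neither, the last 60 bases before the start are shown.
Ahsa1: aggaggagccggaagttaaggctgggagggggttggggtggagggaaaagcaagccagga
Chordc1: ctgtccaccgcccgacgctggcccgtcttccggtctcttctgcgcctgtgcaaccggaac
Cdc37: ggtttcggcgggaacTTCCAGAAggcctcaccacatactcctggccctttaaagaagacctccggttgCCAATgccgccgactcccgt
Fkbp4: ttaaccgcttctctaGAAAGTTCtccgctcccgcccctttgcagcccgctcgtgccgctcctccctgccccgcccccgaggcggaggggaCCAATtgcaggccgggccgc
Fkbp5: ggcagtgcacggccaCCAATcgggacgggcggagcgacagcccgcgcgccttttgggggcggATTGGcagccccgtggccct
Stip1: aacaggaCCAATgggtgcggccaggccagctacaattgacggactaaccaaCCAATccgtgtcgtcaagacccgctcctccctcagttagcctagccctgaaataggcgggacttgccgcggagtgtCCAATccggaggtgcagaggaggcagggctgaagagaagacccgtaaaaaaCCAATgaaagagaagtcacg

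These stretches lie at chr12:87266668-87266727 on the plus strand for Ahsa1 and chr9:18292207-18292266 on the plus strand for Chordc1. Those of the other genes lie on the minus strand, at chr9:21150032-21150119 for Cdc37, chr6:128438713-128438822 for Fkbp4, chr17:28486176-28486257 for Fkbp5 and chr19:7040079-7040276 for Stip1. The paired heat shock letters began 151 bases before the start in Fkbp4 and 170 bases before it in Cdc37. Stip1 held CCAAT 4 times and Fkbp5 held it 2 times. A match is a description of letters in this window only.

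Hsp90aa1 is the gene of the chaperone itself, in its inducible cytosolic form. Its log2 signal was 12.78, 12.71 and 12.67 on the saline arrays, 12.94, 12.81 and 13.00 under TMT and 14.20, 14.17 and 14.13 under TET. The 3 groups did not overlap, and the TET arrays stood far above both others. TET minus saline was 1.45 (SE 0.08, 95% interval 1.26 to 1.63, adjusted p = 5.1e-07 by limma). The TET mean of 14.17 lay close to the highest value of any probe set (14.8), which limits how large a rise this probe set can show. TMT minus saline was 0.20 (SE 0.08, 95% interval 0.01 to 0.38, adjusted p = 0.13) and did not pass, although 3 of 3 TMT arrays lay above the saline range. It passed in 4 of 22 alternatives, among them the second brightest probe set (0.32, adjusted p = 0.020) and array weights (0.23, adjusted p = 0.0035), and its adjusted p ranged from 0.0035 to 1.0. The difference between the compounds was 1.25 (95% interval 1.06 to 1.44, adjusted p = 1.3e-06), at their different doses.

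The probe sets of Hsp90aa1 moved together under TET. All 5 rose, by 0.84 to 1.67 in log2, with adjusted p-values over all probe sets from 2.4e-07 to 0.00045. The 3 bright ones (12.20 to 12.72 in saline) rose by 1.23 to 1.67. Under TMT 1 of the 5 passed, the second brightest (0.32, adjusted p = 0.018).

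Hsp90b1 and Trap1 encode the HSP90 forms of the endoplasmic reticulum (GRP94) and of mitochondria. Hsp90ab1, the gene of the constitutive cytosolic form, was not analysed here. Hsp90b1 was 12.25 ± 0.09 in saline, rose under TMT to 12.56 ± 0.03 (0.31, adjusted p = 0.029) and fell under TET to 11.98 ± 0.11 (−0.27, adjusted p = 0.031). Trap1 was 10.61 ± 0.04 in saline, fell under TMT to 10.26 ± 0.05 (−0.35, adjusted p = 0.049) and under TET to 10.27 ± 0.24 (−0.33, adjusted p = 0.037). Neither rose under TET, and both TET calls were lost after repeated quantile normalization and after cyclic loess (Hsp90b1 −0.14, adjusted p = 0.22; Trap1 −0.10, adjusted p = 0.50). The TMT calls were lost on leaving out any 1 of 5 of the 9 arrays for Hsp90b1 and any 1 of 7 of the 9 for Trap1. Both TET calls were also lost on leaving out some single arrays (adjusted p up to 0.10 for each gene). With its second brightest probe set, Hsp90b1 passed under neither compound.

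Chordc1 encodes morgana, a zinc-binding cochaperone that contacts HSP90, and it was the member that rose under both compounds. Its signal was 11.35, 11.43 and 11.40 in saline, 12.08, 12.19 and 12.08 under TMT and 12.70, 12.71 and 12.72 under TET. The groups did not overlap, and the arrays within each group lay close together. TMT minus saline was 0.73 (SE 0.08, adjusted p = 6.05e-05) and TET minus saline 1.32 (SE 0.08, adjusted p = 5.7e-07). TET exceeded TMT by 0.59 (95% interval 0.42 to 0.77, adjusted p = 0.00014). The SD of 0.01 under TET was larger than that of 0.918% of genes, where the median gene had 0.171. All 22 alternatives kept the 3 calls of Chordc1. Because it has 1 probe set, the alternatives that choose or average probe sets left its values unchanged and could not test them.

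Ahsa1 encodes AHA1, the activator of the HSP90 ATPase. It was 11.35, 11.18 and 11.25 in saline, 11.17, 10.72 and 11.25 under TMT and 11.98, 12.31 and 12.41 under TET. The TET arrays were all above the others, while TMT and saline overlapped. TET minus saline was 0.97 (SE 0.16, adjusted p = 0.00051), and the dim second probe set gave 1.17 (adjusted p = 0.00019). TMT minus saline was −0.21 (SE 0.16, 95% interval −0.56 to 0.13, adjusted p = 0.40), or −0.05 without TMT replicate 2, the lowest array. TET minus TMT was 1.18 (95% interval 0.84 to 1.53, adjusted p = 0.00013).

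**Figure D2:**
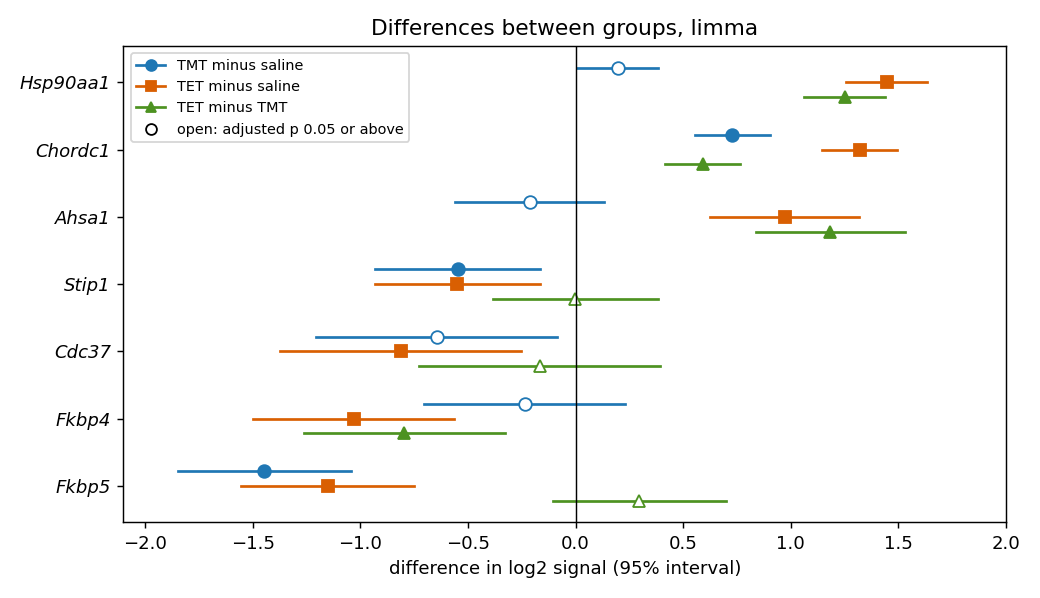
Differences in log2 signal (horizontal axis) with 95% intervals from limma for each gene, for TMT minus saline (circles), TET minus saline (squares) and TET minus TMT (triangles); open symbols did not pass. Hsp90aa1, Chordc1 and Ahsa1 lie to the right of 0 under TET, the other 4 to the left, and Stip1 gives the same value under both compounds (−0.55).

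Stip1 encodes HOP, the adaptor that tethers HSP70 to HSP90. Its single probe set read 10.51, 10.33 and 10.44 in saline, 9.89, 9.55 and 10.20 under TMT and 9.58, 10.05 and 10.00 under TET. Both treated groups lay below saline and overlapped each other. TMT minus saline was −0.55 (SE 0.17, adjusted p = 0.037) and TET minus saline −0.55 (SE 0.17, adjusted p = 0.023). The TMT call was lost without any 1 of the 3 saline arrays (adjusted p = 0.067 to 0.12), without TMT replicate 1 (0.091) and without TMT replicate 2 (−0.38, adjusted p = 0.125). The TET call was lost without saline replicate 1 (adjusted p = 0.072) or 3 (0.060), without TET replicate 1 (−0.40, 0.075), after repeated quantile normalization (−0.43, 0.075) and with cyclic loess between arrays (−0.30, 0.18). TET minus TMT was −0.00 with a 95% interval from −0.38 to 0.38, so that a difference of up to 0.38 in either direction was not resolved.

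Cdc37 encodes the cochaperone that recruits protein kinases. Its signal was 10.10, 9.98 and 10.29 in saline, 9.48, 9.11 and 9.83 under TMT and 8.71, 9.72 and 9.49 under TET. Neither treated group overlapped saline, and both spread more widely than it, with SD 0.36 under TMT and 0.53 under TET against 0.16. TET minus saline was −0.81 (SE 0.25, adjusted p = 0.022) and TMT minus saline −0.65 (SE 0.25, adjusted p = 0.088), which did not pass. The TET call was lost without TET replicate 1 (−0.51, adjusted p = 0.053), without saline replicate 1 (adjusted p = 0.053) or 3 (0.074), after cyclic loess (−0.54, 0.10) and after repeated quantile normalization (−0.66, 0.056). The TMT difference passed without TET replicate 1 (adjusted p = 0.019), which enters only through the shared spread, and with array weights (0.0015). The second probe set, at 8.26 ± 0.06 in saline, fell under both compounds, by 1.03 (adjusted p = 0.012) and by 1.49 (adjusted p = 0.00070). The compounds did not differ beyond the spread (TET minus TMT −0.17, 95% interval −0.73 to 0.39, adjusted p = 0.60).

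Fkbp4 encodes FKBP52, a prolyl isomerase that favours the hormone-bound, nucleus-directed state of steroid receptors. Its brightest probe set read 8.65, 8.54 and 8.66 in saline, 8.36, 8.13 and 8.65 under TMT and 7.07, 7.98 and 7.71 under TET. The TET arrays were below all others, and TMT overlapped saline. TET minus saline was −1.03 (SE 0.21, adjusted p = 0.0023), and −0.77 without TET replicate 1, with the call kept. TMT minus saline was −0.24 (95% interval −0.70 to 0.23, adjusted p = 0.50). TET minus TMT was −0.80 (95% interval −1.26 to −0.33, adjusted p = 0.0095), a call lost after repeated quantile normalization (−0.65, adjusted p = 0.051). A second probe set of Fkbp4, much dimmer at 5.26 ± 0.20 in saline, went the other way, to 6.14 ± 0.44 under TET (0.88, adjusted p = 0.0057), and the third, at 2.82 in saline, read 2.85 under TET (adjusted p = 0.84). The direction under TET therefore differed between probe sets of this gene, and the mean over its probe sets gave −0.04 (adjusted p = 0.72).

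Fkbp5 encodes FKBP51, which holds steroid receptors in a low-affinity state and is itself a well-known glucocorticoid target gene. It had the largest fall of the 7 under TMT, where 347 of 18193 genes fell further. Its signal was 8.67, 8.54 and 8.31 in saline, 6.94, 7.04 and 7.20 under TMT and 6.94, 7.43 and 7.70 under TET. Both treated groups lay below saline and overlapped each other. TMT minus saline was −1.45 (SE 0.18, 95% interval −1.85 to −1.04, adjusted p = 0.00017) and TET minus saline −1.15 (SE 0.18, adjusted p = 0.00045). TET minus TMT was 0.30 (95% interval −0.11 to 0.70, adjusted p = 0.19), and it passed without TET replicate 1 (0.51) and with the mean over its probe sets. Of the 2 dimmer probe sets, at 5.32 and 5.15 in saline, the latter fell under TMT (−0.98, adjusted p = 0.00068) and read −0.29 under TET (adjusted p = 0.12), and the former did not pass under either compound (−0.07 and 0.20). TET minus TMT was 0.69 in the probe set at 5.15 (adjusted p = 0.0032) and 0.28 in that at 5.32 (adjusted p = 0.12).

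**Figure D3:**
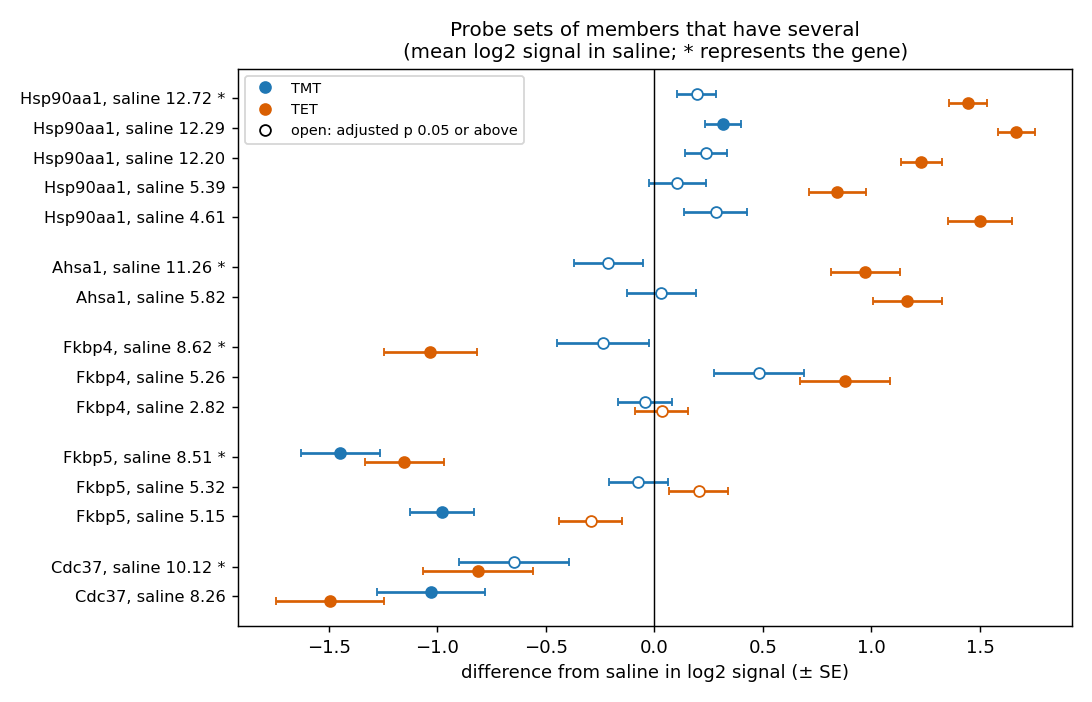
Differences from saline in log2 signal (horizontal axis, ± SE) for each probe set of the 5 members that have several, under TMT and TET; the labels give the mean log2 signal in saline, an asterisk marks the probe set that represents the gene, and open symbols did not pass over all probe sets. The 5 probe sets of Hsp90aa1 lie at 0.84 to 1.67 under TET, whereas those of Fkbp4 lie on both sides of 0.

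Ordered by TET minus saline, the 95% intervals of neighbours overlapped within the 3 risen genes and within the 4 fallen genes. The gap between Ahsa1 (lower bound 0.63) and Stip1 (upper bound −0.17) was the only one between neighbours. Under TMT the only such gap lay between Chordc1 (lower bound 0.55) and Hsp90aa1 (upper bound 0.38). The spread also differed between the members. Under TET the SD was 0.03 in Hsp90aa1 and 0.22 in Ahsa1, but 0.26 in Stip1, 0.39 in Fkbp5, 0.47 in Fkbp4 and 0.53 in Cdc37, where the median gene had 0.171.

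The direct comparison of the compounds used the same arrays at 10 µM TET and 1.25 µM TMT, so it sets these doses against each other. Of the 7 members, 4 passed, against 51.8% of all genes, with 3 higher under TET (28.1% of all genes) and 1 lower (23.7%). The 3 TET arrays lay outside the TMT range in 4 of 7 members, against 57.0% of all genes. Hsp90aa1, Chordc1 and Ahsa1 were higher and Fkbp4 lower, with the limits given for its probe sets, and Stip1, Cdc37 and Fkbp5 did not pass.

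The other genes known to encode HSP90 cochaperones or partners, 33 in the list and 32 measured, were mixed as well. Under TMT 6 rose and 4 fell (31.2% passed, against 27.8% of all genes), with a median of 0.10 against 0.01 over all genes. Under TET 6 rose (27.4% of all genes) and 12 fell (23.4%), so that 56.2% passed, against 50.8% of all genes. Their median was −0.17 against 0.09 over all genes. Most of these genes lie in the brighter bins by saline signal that also hold the members, where the all-gene medians were −0.33 and −0.24. With arrays centred on their medians the TET counts were 5 and 15, and after cyclic loess they were 7 and 12 with a median of −0.04. The 2 largest rises under TET were those of Fnip2 and Fnip1, whose products slow the HSP90 ATPase and bind folliculin. Fnip2 rose from 8.08 ± 0.18 to 11.19 ± 0.20 under TMT (8.61-fold, adjusted p = 4.3e-07) and to 11.94 ± 0.26 under TET (14.5-fold, adjusted p = 4.6e-08). Fnip1 rose 2.65-fold under TMT (1.41, SE 0.10) and 9.6-fold under TET (3.26, SE 0.10).

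Fkbpl, an FKBP-like cochaperone gene, rose under TMT (1.59, SE 0.13, adjusted p = 1.2e-05) and did not pass under TET (0.35, adjusted p = 0.055). Ruvbl1, encoding an ATPase of the R2TP assembly complex, fell under TMT (−0.92, adjusted p = 0.0018) and under TET (−0.76, adjusted p = 0.0034). Tti1, a partner of the TELO2 complex that matures large kinases, rose under TMT (0.59, adjusted p = 0.0043) and fell under TET (−1.20, adjusted p = 2.3e-05). Ttc1, encoding a protein with the helical repeats through which cochaperones grip HSP90, rose under TET (1.02, adjusted p = 2.3e-05) and read 0.02 under TMT (adjusted p = 0.91).

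**Figure D4:**
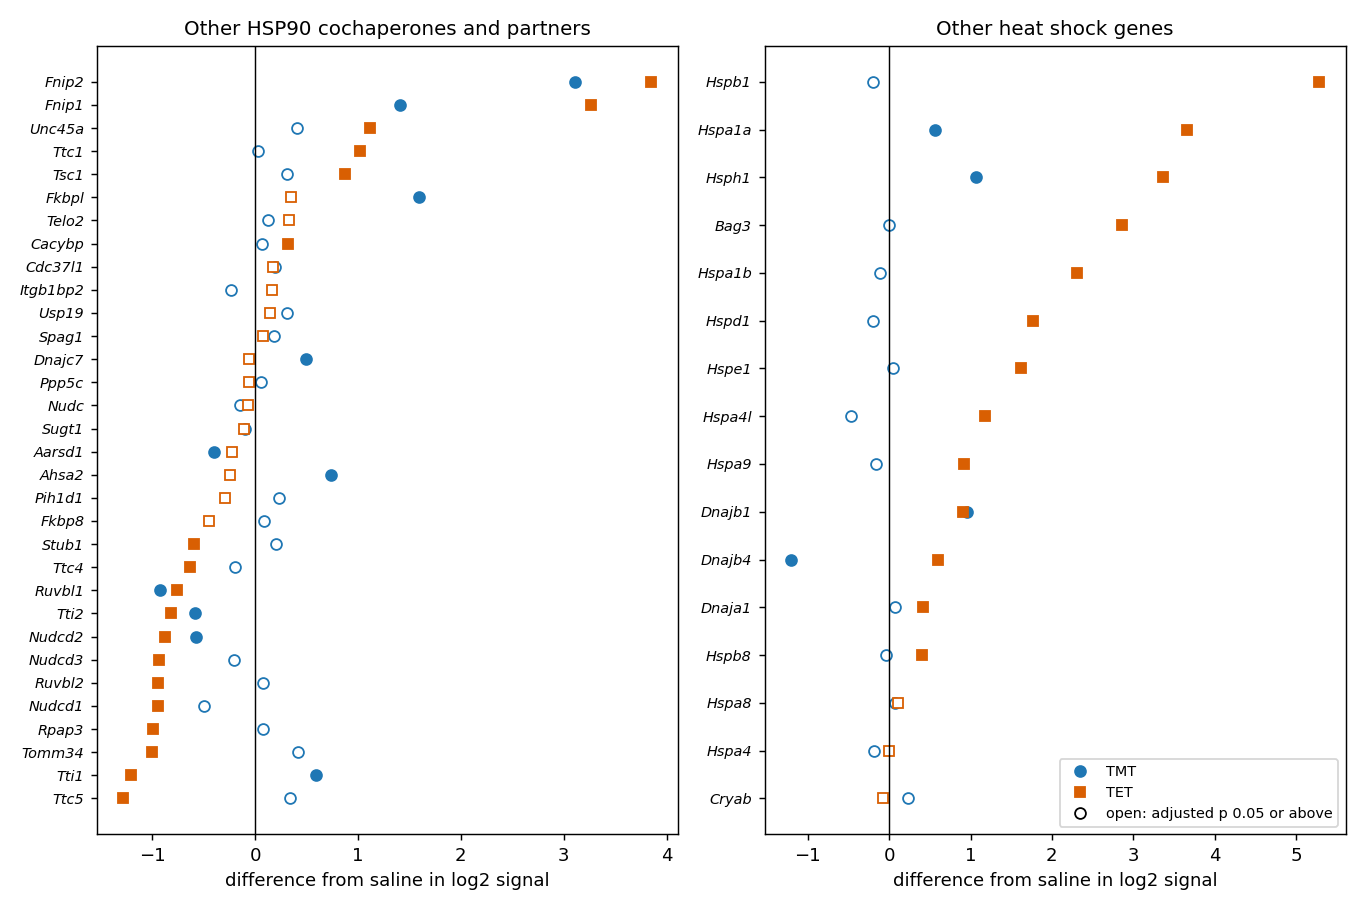
Differences from saline in log2 signal (horizontal axis) for 32 other HSP90 cochaperones and partners (left) and 16 other heat shock genes (right) under TMT (circles) and TET (squares), ordered by the TET value; open symbols did not pass. On the left 6 genes rose and 12 fell under TET, and on the right 13 rose and 3 did not pass.

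Of the 16 other inducible heat shock genes, 13 rose under TET (27.4% of all genes rose) and Hspa8, Hspa4 and Cryab did not pass (0.10, −0.01 and −0.07), with a median of 1.04 against 0.09 over all genes. Hspa8 already read 13.99 in saline, close to the highest value of any probe set (14.8), which limits how large a rise it can show. Each of the 3 scaling alternatives gave 12 rises. Hspb1, the small heat shock protein HSP27, rose 39.0-fold, from 6.28 ± 0.07 to 11.56 ± 0.18 (5.29, SE 0.10), but read 0.10 (adjusted p = 0.58) without probe sets named _x_at, _s_at or _a_at. Hspa1a, the inducible HSP70, rose 12.7-fold (3.67, SE 0.10), Hsph1, an HSP110 gene, 10.3-fold (3.36, SE 0.09), and Bag3, an HSP70 nucleotide exchange factor gene, 7.29-fold (2.87, SE 0.12). Under TMT 3 of the 16 rose and 1 fell, with a median of −0.03, and the share that passed (25% against 27.8% of all genes) was near that of all genes. The 3 were Hsph1 (1.07, adjusted p = 1.0e-05), Dnajb1, an HSP40 gene (0.95, adjusted p = 8.3e-05), and Hspa1a (0.56, adjusted p = 0.0017), and the HSP40 gene Dnajb4 fell (−1.21, adjusted p = 0.00012). The dim heat shock factor genes Hsf2 (0.39, adjusted p = 0.023) and Hsf4 (0.36, adjusted p = 0.027) rose under TET and did not pass under TMT. Both TET calls were lost under each of the 3 scaling alternatives. Hsbp1, which encodes a heat shock factor binding protein, passed under neither compound (0.07 under TMT and −0.02 under TET). Hsf1 was not analysed here.

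Because FKBP51 and FKBP52 act on the glucocorticoid receptor, a list of 14 target genes of that receptor, all measured, was read beside Fkbp5. Under TMT 3 rose and 6 fell (64.3% passed, against 27.8% of all genes), with a median of −0.04. Under TET 6 rose and 4 fell (71.4% passed, against 50.8%), with a median of 0.17. Per1, a clock gene, rose under TMT (2.21, SE 0.26) and under TET (2.64, SE 0.26). So did Tsc22d3, encoding the leucine zipper protein GILZ (0.69, adjusted p = 0.0011, and 1.90, adjusted p = 6.2e-07). The TET call of Tsc22d3 was not kept without probe sets named _x_at, _s_at or _a_at, and its TMT call was not put to the alternatives. Klf9, a transcription factor gene, rose under TET from 8.15 ± 0.19 to 12.56 ± 0.28 (4.41, adjusted p = 4.4e-08) and read −0.03 under TMT. Errfi1, encoding an inhibitor of EGF receptor signalling, fell under both (−3.19 and −2.12), and so did Cebpd, encoding a C/EBP transcription factor (−1.21 and −1.17). The list thus held genes that moved with Fkbp5 and genes that moved against it.

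For likeness to a member, the root mean square distance over the 9 arrays was taken between log2 values, each gene set to 0 at its saline mean, among 9096 other genes of at least median signal. Nearest to Hsp90aa1 were Cyfip2 (0.076), Fbxo28 (0.088), Commd6 (0.088), Srek1 (0.089) and Oas1b (0.095), whose TET minus saline ran from 1.36 to 1.43. None of these 5 is a chaperone gene, and the second probe set of Cyfip2 read −0.07 under TET. Nearest to Fkbp5 were Spire1 (0.14), Pam (0.18), Eef1e1 (0.19), Dr1 (0.20) and Smim3 (0.20), with TMT minus saline from −1.53 to −1.21.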

How the data were processed

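RNA of 9 samples in 3 groups of 3 was read on Affymetrix mouse genome expression arrays after amplification from 50 ng, per the labels' protocols. RMA and affy are named in the submitters' processing notes, with no version. The authors deposited log2 values of 45037 probe sets. The log base was taken from the values (2.05 to 14.8), whether RMA was run on all arrays at once is not given in the sources used here, and the table was used as deposited. Arrays carry no depth, and their number limits the precision.

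The platform annotation named 1 gene for 34945 probe sets, several for 932 and none for 9160, and the last 2 kinds were left out. limma 3.58.1 in R 4.3.3 estimated a mean for each group from the 9 arrays jointly (6 residual and 3.99 prior degrees of freedom). Its two-sided tests were corrected by the Benjamini-Hochberg method over 18193 genes, or over 34945 probe sets where probe sets are given. The fit was tested on simulated data. Named genes were the members, Hsp90b1, Trap1, the heat shock factors, at most 4 genes per list ranked by adjusted p in each comparison with saline, and 5 nearest genes. The members and lists were chosen with earlier results of these data known. Promoters came from RefSeq (GRCm38.p6). The alternatives were other scalings, filters, probe sets, weights, moderation, arrays in the fit, a test against a 1.2-fold change, a replicate block and leaving out each array.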

Additional observations from a re-analysis of the deposited data

How the results depend on the processing

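Of the 7 members, 3 passed under TMT, 7 under TET and 4 between the compounds, and the replicate block left these counts at 3, 7 and 4. Among the other named genes it ended the calls of Trap1 under TMT (adjusted p = 0.058) and of Ptges under TET (adjusted p = 0.061). The labels give groups the same replicate numbers, but not every pair of samples with 1 number deviated together (correlations of deviations across genes 0.16, 0.31 and 0.02 for TMT with saline, −0.13, −0.06 and −0.04 for TET with saline, and −0.10, −0.15 and 0.15 for TET with TMT), so the numbers were not taken as pairs. Leaving out 1 array gave 2 to 4, 5 to 7 and 4 to 5 members. Under TMT, 5 members passed with the mean over probe sets of a gene and 5 with array weights, where 5429 and 8756 of 18193 genes passed, against 5049 in the reported fit. Directions turned with the probe set in several genes, and with other alternatives for Stip1 and Cdc37 between the compounds. With the second brightest probe set the TMT difference was 0.032 for Ahsa1, 0.48 for Fkbp4, 0.14 for Fkbp7 and −0.10 for Ppil3, and the TET difference was 0.88 for Fkbp4, 0.20 for Fkbp5, 0.25 for Ppil2, 0.26 for Ptges and −0.073 for Cyfip2. TET minus TMT of Fkbp4 was then 0.39. Without probe sets named _x_at, _s_at or _a_at, Fkbp4 was 0.48 under TMT, 0.88 under TET and 0.39 between the compounds, and Ppil2 0.25 under TET. With the mean over probe sets Fkbp4 was 0.068 under TMT. Between the compounds, Stip1 and Cdc37, which did not pass, were 0.12 and 0.020 after repeated quantile normalization and 0.25 and 0.11 after cyclic loess, and Stip1 was 0.0074 with array weights. Leaving out 1 array gave −0.17 to 0.16 for Stip1 and −0.37 to 0.13 for Cdc37. The cause of these changes was not tested beyond the choice of probe set.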

Other observations

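HSP90 clients, a list of 43 genes with 34 measured, changed in both directions. Under TMT 10 rose and 9 fell (55.9% passed, against 27.8% of all genes), and under TET 10 rose and 12 fell (64.7%, against 50.8%). Cdk6, a cell cycle kinase gene, fell 3.18-fold under TMT and 3.71-fold under TET. Eif2ak3, encoding the endoplasmic reticulum stress kinase PERK, rose 2.63-fold and 8.82-fold, the former not kept with its second brightest probe set (0.26, adjusted p = 0.16). The TET difference of Eif2ak3 (3.14) passed in all 22 alternatives, but its size ran from 1.28 to 3.29 over them. Wee1, a mitotic brake kinase gene, fell under TMT (−0.96, adjusted p = 7.7e-05, but −0.14 with its second brightest probe set) and rose under TET from 6.25 ± 0.19 to 8.86 ± 0.01 (2.61, adjusted p = 4.8e-08). Pdpk1, encoding the kinase that activates AKT, rose under TET (1.56, adjusted p = 3.2e-06).

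The relatives of the immunophilins were measured as well. Of 9 measured genes among 11 other FKBP genes, 1 rose and 2 fell under TMT (33.3% passed, against 27.8% of all genes), and 2 fell under TET (22.2%, against 50.8%). Fkbp15 rose under TMT (0.97, adjusted p = 0.00024), Fkbp3 fell under TMT (−0.93, adjusted p = 0.00063) and Fkbp1b, which encodes a calcium channel partner, fell under TET (−1.26, adjusted p = 4.6e-05). Of 10 measured genes among 12 other cyclophilins, 1 rose under TMT (10% passed, against 27.8% of all genes), and 3 fell under TET (30%, against 50.8%). With arrays centred on their medians 5 fell under TET, and 2 after cyclic loess. Among the 3 was Ppil1 (−0.84, adjusted p = 0.00045). The prostaglandin E synthase gene Ptges, whose enzyme shares the activity assigned to p23, rose 4.58-fold under TMT (2.20, SE 0.11, adjusted p = 4.1e-07). Under TET it fell (−0.29, adjusted p = 0.045), a call lost in 14 of 22 alternatives and turned in 1.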
